A study of Arabidopsis thaliana with 6 samples.

Results

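The heat shock protein and heat shock factor genes of Arabidopsis thaliana were followed in seedling RNA of 3 genotypes: Col-0 (wild type), apc8-1, mutant in the APC8 gene of the anaphase promoting complex, a ubiquitin ligase of the cell cycle, and nrpe1-12, mutant in NRPE1, which encodes the largest RNA polymerase V subunit and acts in RNA-directed DNA methylation. A gene was a member if its short description in the deposited table held the words "heat shock protein", "heat shock transcription factor" or "HSP20-like" and not "DNAJ". This took 83 of the 32594 loci. They comprise 14 heat shock factor genes, 1 HSP100 gene, 5 HSP90 genes, 15 HSP70 genes, 3 HSP60 genes, 39 small HSP and other HSP20-like genes, 5 pseudogenes and 1 gene described only by its similarity to an HSP20-like protein. There were 2 libraries per genotype, made from total RNA of 14-day seedlings after removal of ribosomal RNA. Plants grew on MS plates and received no treatment, so all groups lacked a heat treatment. No source used here states the kind of lesion in either allele or whether the duplicates were separate cultures, so the p-values reflect the spread between these libraries and nothing wider.

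Heat shock factors (HSFs) are transcription factors that bind heat shock elements in promoters. In plants the HSFA1 factors start the response to heat, HSFA2 prolongs it, and several class B factors act as repressors. Their targets encode chaperones: HSP101 takes protein aggregates apart, HSP70 and HSP90 fold and mature client proteins, HSP60 forms chaperonin rings in organelles, and small HSPs of the HSP20 family hold unfolded proteins until they can be refolded. Some HSP70, HSP60 and HSP90 genes are active without stress, while most small HSP genes are nearly silent until heat, osmotic stress or seed maturation.

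Levels are FPKM values as the authors deposited them, that is, fragments scaled by transcript length and by the size of the library. The libraries held 16828 to 17301 loci at 1 FPKM or more, and 1 FPKM corresponded to an estimated 13.95 to 19.1 fragments per kilobase of usable transcript length. Log2 changes are differences of mean log2(FPKM + 1), given with their standard errors (SE); this scale understates the changes of low genes. A change was called at an adjusted p below 0.05 (limma, Benjamini-Hochberg over all 17802 loci tested). The nrpe1-12 columns of the table share 1 name, so they are called libraries a and b. Marker genes were those of a vegetative seedling: all 4 embryo and seed markers and both flower markers stayed below 1 FPKM. The summed level of 3 green shoot markers was 12800 to 12900 FPKM for Col-0, 17600 to 18600 for apc8-1 and 20000 to 21000 in nrpe1-12. That of 5 root markers, nearly all of it PYK10, was 668 to 691, 381 to 423 and 493 to 538 FPKM, with EXPA7 and SHV2 below 1 FPKM in every library. PYK10 and CASP1 were called lower in both mutants (CASP1 1.41 and 2.67 FPKM for Col-0, at most 0.685 in the mutants). EXPA7 and SHV2 were not tested but were also lower there. EXPA7 had 0.583 and 0.778 FPKM for Col-0 and at most 0.267 in the mutants. SHV2 had 0.624 and 0.722 FPKM for Col-0 and at most 0.0953 in the mutants. Only SCR was higher in both (5.14 to 5.35 FPKM for Col-0, 7.30 to 7.35 for apc8-1, 6.76 to 7.52 for nrpe1-12). In whole seedlings fewer cells of a type and less RNA per cell cannot be told apart, and the part of tissue makeup in the results below was not tested.

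Of the 83 members 59 were tested, having reached 1 FPKM in at least 2 libraries. In apc8-1 against Col-0, 3 members were higher and 18 lower, which is 35.6% of those tested, where 30.2% of all tested loci were called (14.1% higher and 16.1% lower). In nrpe1-12 against Col-0, 12 were higher and 13 lower, 42.4% of those tested, where 26.3% of all loci were called (13.5% higher and 12.8% lower). Between the mutants, apc8-1 was higher than nrpe1-12 for 3 members and lower for 19, 37.3% of those tested, where 18.7% of all loci were called (7.26% higher and 11.4% lower). The members' median log2 change was -0.19 in apc8-1, -0.01 in nrpe1-12 and -0.15 for apc8-1 against nrpe1-12, and that of all tested loci was 0.01, -0.01 and 0.001. Both comparisons with Col-0 use the same Col-0 libraries, so each member's values are given side by side and only the direct comparison of the mutants tests a difference between them. HSFB3 passed the filter on low values through Col-0 alone, and HSP17.6II and AT4G16540 through nrpe1-12 alone. In comparisons that include the genotype through which they passed, these 3 could therefore differ only in 1 direction. The number of members lower in nrpe1-12 fell to 6 without Col-0 library 1 or Col-0 library 2 and to 7 without library a. The number higher in apc8-1 was 1 without Col-0 library 2 and 5 without apc8-1 library 1, and the number higher than in nrpe1-12 was 1 without apc8-1 library 2.

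**Figure D1:**
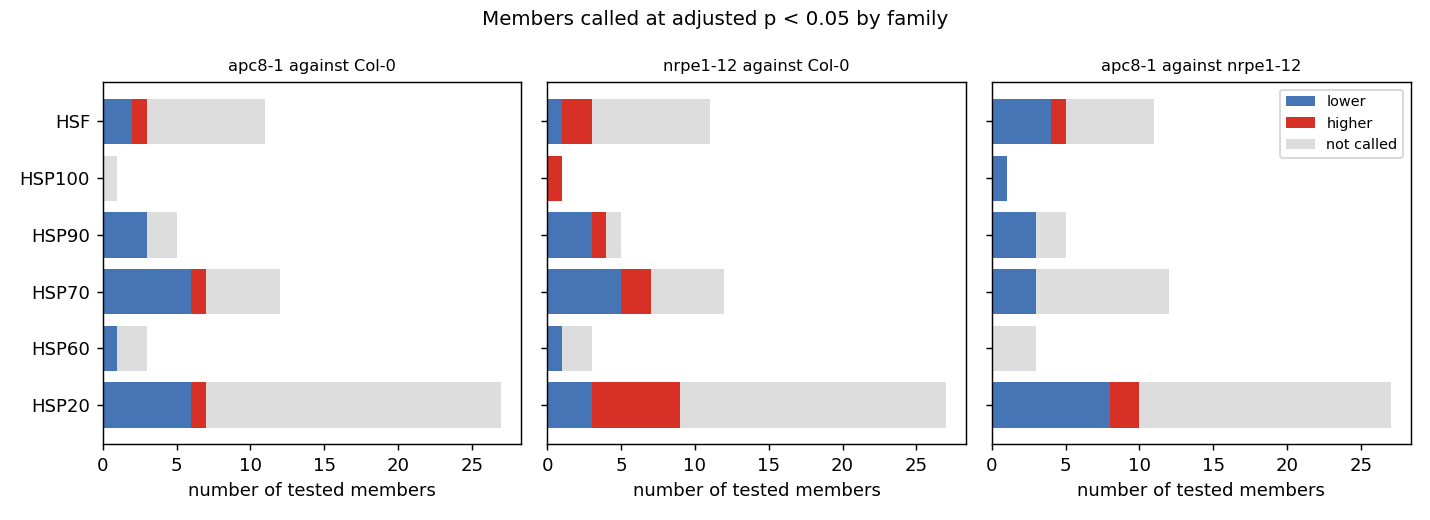
Number of tested members per family (bar length) called lower (blue), called higher (red) or not called (grey) in each of the 3 comparisons. In apc8-1 against Col-0 the calls are mostly decreases (18 of 21), in nrpe1-12 against Col-0 they are split (12 higher, 13 lower), and 19 of 22 calls between the mutants are lower in apc8-1.

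**Figure D2:**
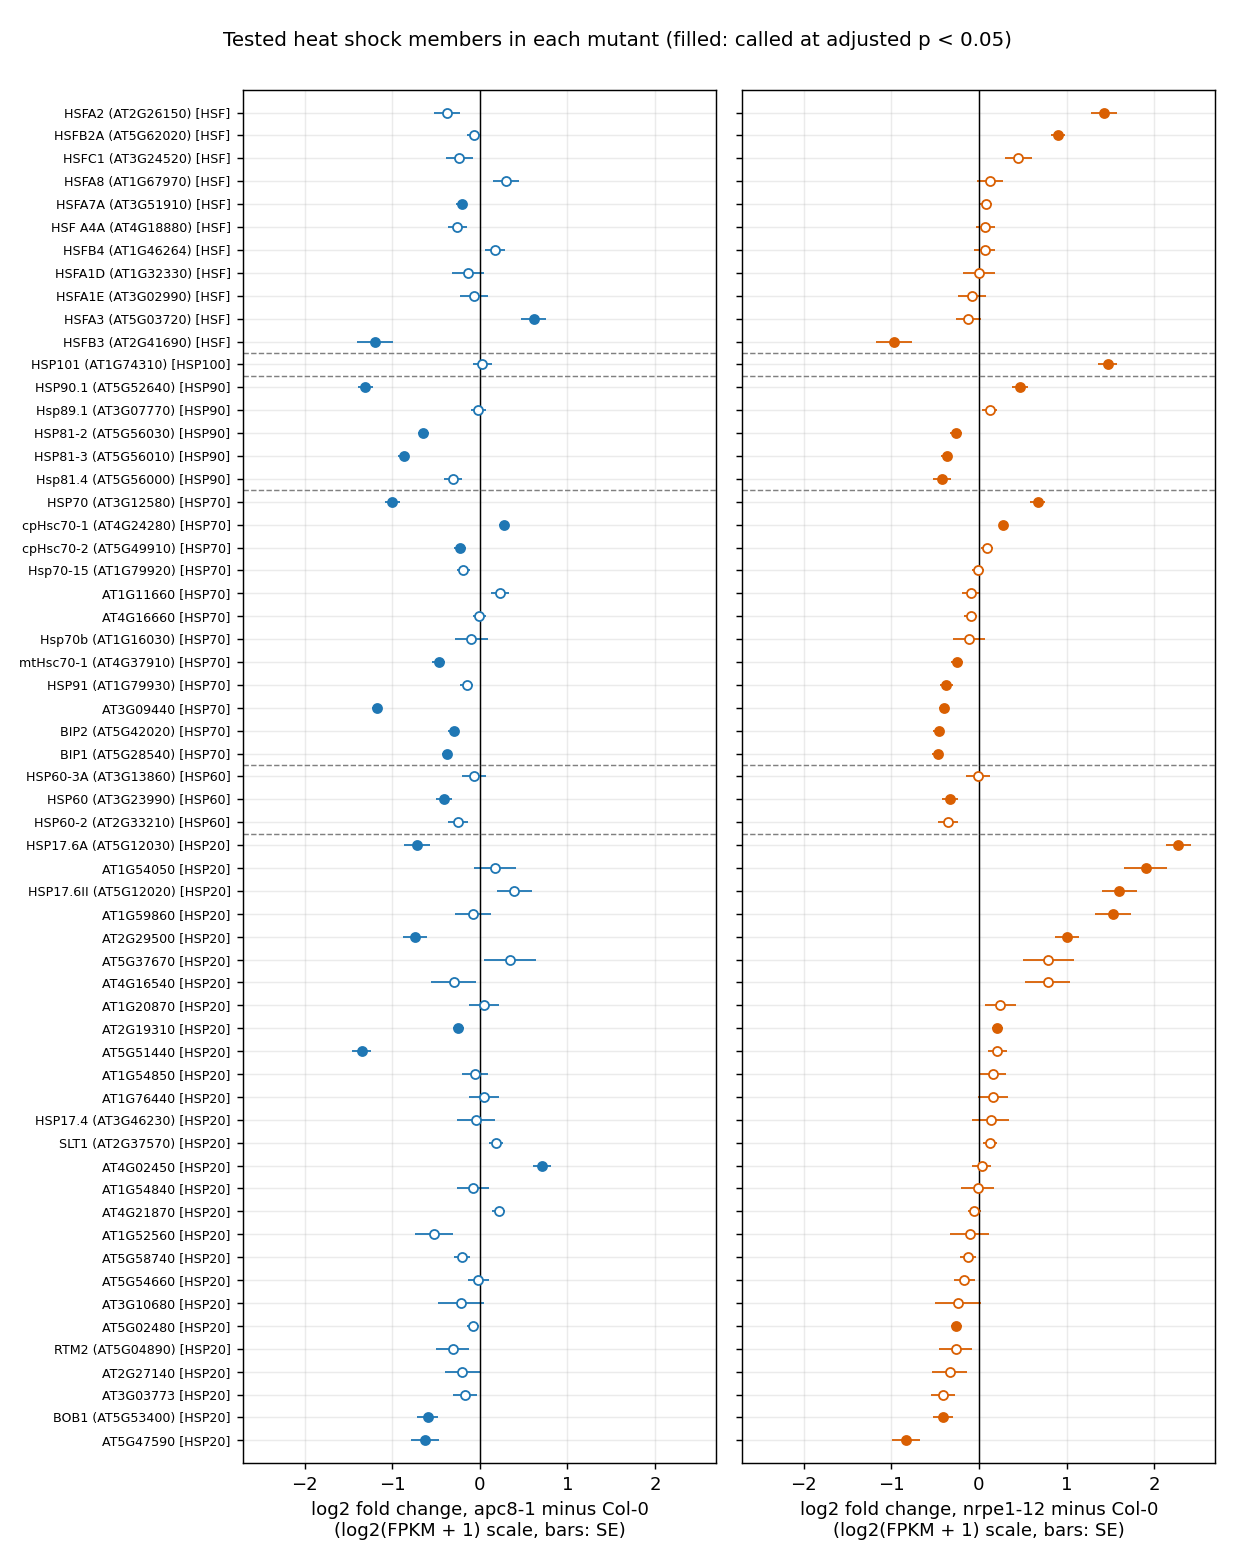
Log2 fold change on the log2(FPKM + 1) scale, with SE, of the 59 tested members in apc8-1 (left) and nrpe1-12 (right) against Col-0, grouped by family and ordered by the change in nrpe1-12. Filled points were called; the largest increase is that of HSP17.6A in nrpe1-12 (2.28) and the largest decrease that of AT5G51440 in apc8-1 (-1.35).

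Among the 11 tested HSF members, 1 was higher and 2 lower in apc8-1, and 2 were higher and 1 lower in nrpe1-12. That is 27.3% in each mutant, near the 30.2% and 26.3% of all loci called. Between the mutants, apc8-1 was higher for 1 and lower for 4, 45.5% beside 18.7% of all loci. HSFA2 and HSFB2A were higher in nrpe1-12, HSFA3 was higher in apc8-1 and HSFA7A lower there. HSFB3 was lower in both mutants, but it passed the filter on low values through Col-0 alone and could only come out lower. HSFA2 (AT2G26150, TAIR10 chromosome 2, 11135682 to 11137396), the factor that sustains the heat response, had 0.911 and 1.16 FPKM for Col-0, 0.501 and 0.630 for apc8-1 and 4.63 and 4.33 for nrpe1-12. The nrpe1-12 libraries stood above all others, and the apc8-1 libraries lay below both Col-0 libraries. Its log2 change was 1.43 in nrpe1-12 (SE 0.15, adjusted p = 3.74e-04 by limma), -0.38 in apc8-1 (adjusted p = 0.0943, not called) and -1.81 for apc8-1 against nrpe1-12 (adjusted p = 1.80e-04). These levels rested on an estimated 20 and 19 fragments for Col-0, 9 and 12 for apc8-1 and 91 and 71 for nrpe1-12. HSFB2A (AT5G62020, chromosome 5, 24916089 to 24917643), a class B factor, had 12.7 and 12.96 FPKM for Col-0, 11.7 and 12.7 for apc8-1 and 24.0 and 25.7 for nrpe1-12. It rose in nrpe1-12 by 0.90 in log2 units (SE 0.08, adjusted p = 1.96e-04), was not called in apc8-1 (log2 change -0.07), and was lower in apc8-1 than in nrpe1-12 (log2 change -0.97, adjusted p = 2.07e-04).

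HSFA3 (AT5G03720, chromosome 5, 971786 to 973683), a factor that acts in drought and heat, had 1.56 and 1.47 FPKM for Col-0, 2.63 and 3.06 for apc8-1 and 1.31 and 1.32 for nrpe1-12. Only the apc8-1 libraries stood above Col-0, with a log2 change of 0.61 (SE 0.14, adjusted p = 0.0128), and they also stood above nrpe1-12 (log2 change 0.73, adjusted p = 0.00965). HSFB3 (AT2G41690), another class B gene, had 1.95 and 2.21 FPKM for Col-0, 0.612 and 0.121 for apc8-1 and 0.584 and 0.565 for nrpe1-12. Its log2 change was -1.19 in apc8-1 (adjusted p = 0.00334) and -0.97 in nrpe1-12 (adjusted p = 0.0102). It rested on an estimated 19 and 16 fragments in Col-0 and on 5 or fewer in each mutant library. Having passed the filter on low values through Col-0 alone, HSFB3 could only come out lower in the mutants. HSFA7A (AT3G51910), at 58.0 and 53.7 FPKM for Col-0 the most abundant HSF transcript, had 49.5 and 46.9 in apc8-1 and 59.0 and 59.3 in nrpe1-12. It was called lower in apc8-1 against Col-0 (log2 change -0.21, adjusted p = 0.0461) and against nrpe1-12 (log2 change -0.29, adjusted p = 0.0193). HSFC1 was not called against Col-0 in either mutant but differed between them, with 4.47 and 3.92 FPKM in apc8-1 against 6.28 and 8.55 in nrpe1-12 (log2 change -0.69, adjusted p = 0.0179). Its span overlaps that of the gene AT3G24518 on the opposite strand, which had a mean of 0.21 FPKM, over 1360 bases. Whether counting separated the strands is not stated, so the HSFC1 level is uncertain.

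Several of these HSF calls were lost when a single library was left out. The HSFA7A call against Col-0 was lost without any 1 of the 6 libraries (adjusted p = 0.0626 to 0.269), and that against nrpe1-12 without apc8-1 library 2, library a or library b (adjusted p = 0.0762 to 0.0874). HSFA3 lost its call against Col-0 without Col-0 library 1 (adjusted p = 0.0587), Col-0 library 2 (adjusted p = 0.0752) or apc8-1 library 2 (adjusted p = 0.0726), and against nrpe1-12 without apc8-1 library 2 (adjusted p = 0.0560). HSFC1 lost its call without apc8-1 library 2 (adjusted p = 0.0810) or library b (adjusted p = 0.102), and without either Col-0 library HSFB3 was not tested. With no filter on low values the HSFB3 calls were lost (adjusted p = 0.0514 in apc8-1 and 0.0884 in nrpe1-12), as were those of HSFA7A and HSFC1 (adjusted p = 0.0833 to 0.159). HSFB3 in nrpe1-12 also lost its call with a pseudocount of 0.1 (adjusted p = 0.0593).

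The HSFA1 genes, which start the heat response, were not called in any comparison. HSFA1D had 3.49 and 3.57 FPKM for Col-0, 3.15 and 3.10 for apc8-1 and 4.49 and 2.75 for nrpe1-12. HSFA1E stayed between 0.970 and 1.41 FPKM in the 6 libraries. HSFA1A and HSFA1B, which the table describes as heat shock factors 1 and 3 and which are therefore not members, ranged from 5.88 to 7.35 FPKM and from 14.0 to 19.6 FPKM. Without apc8-1 library 1, HSFA1B was called higher in apc8-1 than in Col-0 (adjusted p = 0.0458) and than in nrpe1-12 (adjusted p = 0.0261). The other tested HSF members, HSFB4 (also SCHIZORIZA, a regulator of root cell fate), HSFA8 and HSFA4A, were not called either, with log2 changes from -0.33 to 0.30. HSFA6A reached 1 FPKM in 1 library only, and HSFA6B and HSFA9, a factor of seed maturation, stayed below 0.2 FPKM. Of the repressor genes outside the membership rule, HSFB1 (AT4G36990) had 12.6 and 14.4 FPKM for Col-0, 4.86 and 6.20 for apc8-1 and 10.7 and 9.38 for nrpe1-12. It was lower in apc8-1 than in Col-0 (log2 change -1.15, adjusted p = 4.44e-04) and than in nrpe1-12 (log2 change -0.76, adjusted p = 0.00564). In nrpe1-12 HSFB1 was not called against Col-0 (log2 change -0.39, adjusted p = 0.0583) but was without apc8-1 library 1 or apc8-1 library 2 (adjusted p = 0.0336 and 0.0345). HSFB2B (AT4G11660) had 3.46 and 4.01 FPKM for Col-0, 4.86 and 5.26 for apc8-1 and 8.31 and 7.95 for nrpe1-12, and was higher there than in Col-0 (log2 change 0.95, adjusted p = 6.71e-04). Its call as higher in apc8-1 (log2 change 0.36, adjusted p = 0.0462) was lost without any 1 of the 6 libraries (adjusted p = 0.0678 to 0.230). It was lower in apc8-1 than in nrpe1-12 (log2 change -0.59, adjusted p = 0.00941), a call lost without library a (adjusted p = 0.0575). With no filter on low values, HSFB1 and HSFB2B lost their calls between the mutants (adjusted p = 0.0963 and 0.0555) and HSFB2B that in apc8-1 (adjusted p = 0.0951).

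**Figure D3:**
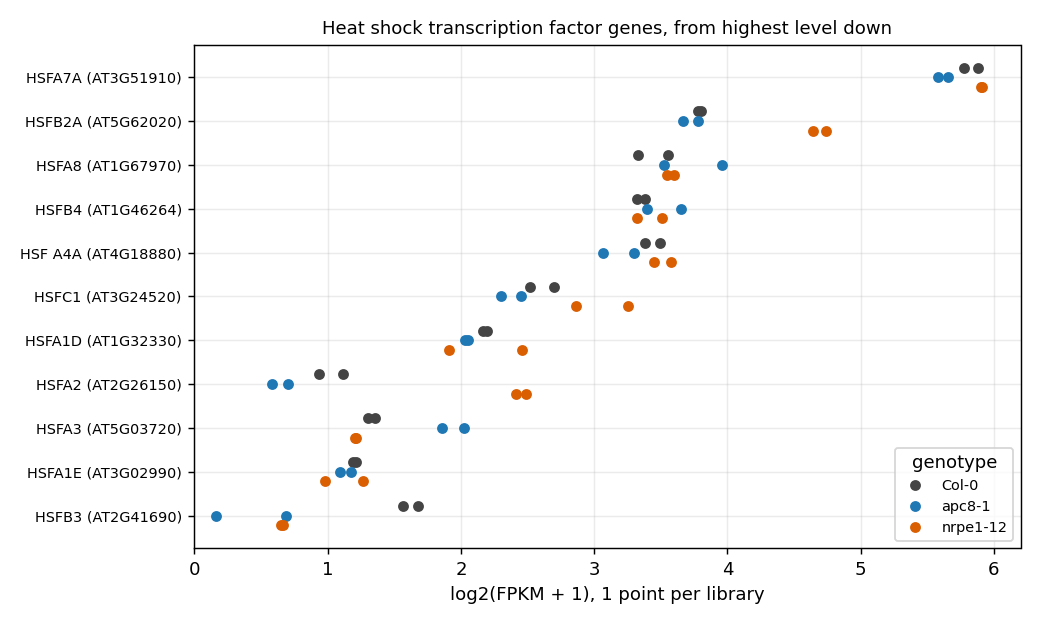
Levels of the 11 tested HSF members as log2(FPKM + 1), with 1 point per library and genotypes in colour. HSFA2 and HSFB2A have their nrpe1-12 points to the right of all others, HSFA3 has its apc8-1 points to the right, and the Col-0 points of HSFB3 (1.95 and 2.21 FPKM) lie to the right of both mutants. HSFB3 passed the filter on low values through Col-0 alone.

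HSP101 (AT1G74310, chromosome 1, 27936508 to 27940190), the disaggregase needed for acquired thermotolerance, had 2.72 and 2.71 FPKM for Col-0, 2.75 and 2.82 for apc8-1 and 9.27 and 9.30 for nrpe1-12. The libraries of Col-0 and apc8-1 lay close together and both nrpe1-12 libraries far above them. The log2 change was 1.47 in nrpe1-12 (SE 0.11, adjusted p = 7.80e-05), 0.03 in apc8-1 (adjusted p = 0.880) and -1.44 for apc8-1 against nrpe1-12 (adjusted p = 1.10e-04). Its span shares 101 bases with AT1G74300 on the opposite strand, a gene with a mean of 2.49 FPKM over the libraries.

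Of the HSP90 genes, the stress-inducible HSP90.1 was lower in apc8-1 and higher in nrpe1-12, while HSP81-3 and HSP81-2, constitutive cytosolic genes, were lower in both mutants. HSP90.1 (AT5G52640, chromosome 5, 21352399 to 21355361) had 15.8 and 14.4 FPKM for Col-0, 5.32 and 5.70 for apc8-1 and 20.6 and 22.0 for nrpe1-12. No libraries of different genotypes overlapped. It fell in apc8-1 by 1.30 in log2 units (SE 0.09, adjusted p = 4.02e-05) and rose in nrpe1-12 by 0.47 (adjusted p = 0.00646), and the mutants differed by -1.78 (apc8-1 minus nrpe1-12, adjusted p = 1.82e-05). HSP81-3 (AT5G56010, also HSP90.3, chromosome 5, 22681305 to 22684129), a cytosolic HSP90 gene and the most abundant of the family, had 109 and 104 FPKM for Col-0, 57.4 and 58.4 for apc8-1 and 80.1 and 84.7 for nrpe1-12. The order Col-0, nrpe1-12, apc8-1 held for every library. Its log2 change was -0.87 in apc8-1 (adjusted p = 4.27e-05), -0.37 in nrpe1-12 (adjusted p = 0.00325) and -0.50 between the mutants (adjusted p = 0.00116).

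HSP81-2 (AT5G56030, also HSP90.2, chromosome 5, 22686802 to 22689650), its neighbour, had 97.6 and 91.6 FPKM for Col-0, 62.7 and 57.8 for apc8-1 and 77.5 and 80.1 for nrpe1-12, the same order. The log2 change was -0.64 in apc8-1 (adjusted p = 2.98e-04), -0.26 in nrpe1-12 (adjusted p = 0.0231) and -0.38 between the mutants (adjusted p = 0.00609). Hsp81.4 (AT5G56000, also HSP90.4), next to them at 22677451 to 22680152, had 13.8 and 13.1 FPKM for Col-0, 10.8 and 10.5 for apc8-1 and 8.90 and 10.7 for nrpe1-12. It was called lower in nrpe1-12 (log2 change -0.42, adjusted p = 0.0181) and not in apc8-1 (log2 change -0.30, adjusted p = 0.0570). Hsp89.1 (AT3G07770, also HSP90.6), a mitochondrial form, was between 13.1 and 15.6 FPKM in all libraries and was not called. Summed over the 5 genes, the HSP90 level was 237 to 250 FPKM for Col-0, 146 to 149 for apc8-1 and 201 to 213 in nrpe1-12. HSP81-2, HSP81-3 and Hsp81.4 are close paralogs, so the split of fragments among them is uncertain. In nrpe1-12 the call of HSP90.1 was lost without Col-0 library 2 (adjusted p = 0.0574), and that of HSP81-2 without any 1 of the libraries of Col-0 or nrpe1-12 (adjusted p = 0.0602 to 0.158). The Hsp81.4 call was lost without Col-0 library 1 (adjusted p = 0.105), Col-0 library 2 (adjusted p = 0.0664) or library a (adjusted p = 0.0994). With no filter on low values HSP81-2 lost its calls in nrpe1-12 (adjusted p = 0.101) and between the mutants (adjusted p = 0.0645), and Hsp81.4 its call in nrpe1-12 (adjusted p = 0.101).

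Among 12 tested HSP70 genes, 6 were lower and 1 higher in apc8-1, and 5 were lower and 2 higher in nrpe1-12, which is 58.3% in each mutant beside 30.2% and 26.3% of all loci. HSP70 (AT3G12580, chromosome 3, 3991261 to 3993792), a heat-inducible gene, had 17.8 and 18.8 FPKM for Col-0, 8.10 and 9.24 for apc8-1 and 28.7 and 30.7 for nrpe1-12, with no overlap between genotypes. It fell in apc8-1 (log2 change -0.997, SE 0.09, adjusted p = 1.41e-04), rose in nrpe1-12 (log2 change 0.67, adjusted p = 0.00113) and differed between the mutants (log2 change -1.67, adjusted p = 2.28e-05). AT3G09440, an HSP70 family gene on chromosome 3 (2903199 to 2905724) and the most abundant HSP70 member, had 171 and 166 FPKM for Col-0, 72.0 and 76.2 for apc8-1 and 129 and 126 for nrpe1-12. Both mutants lay below Col-0, and apc8-1 lay lowest. The log2 change was -1.18 in apc8-1 (SE 0.06, adjusted p = 7.96e-06), -0.40 in nrpe1-12 (adjusted p = 0.00175) and -0.78 between the mutants (adjusted p = 1.08e-04).

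BIP1 and BIP2 of the endoplasmic reticulum and mtHsc70-1 and HSP60 of the mitochondria were lower in both mutants. BIP1 (AT5G28540, chromosome 5, 10540460 to 10543375), an HSP70 of the endoplasmic reticulum, had 86.0 and 90.2 FPKM for Col-0, 66.3 and 69.0 for apc8-1 and 62.2 and 64.3 for nrpe1-12, with log2 changes of -0.38 (adjusted p = 0.00239) and -0.47 (adjusted p = 9.16e-04). BIP2 (AT5G42020), its close paralog, had 41.4 and 42.9 FPKM for Col-0, 34.1 in both apc8-1 libraries, and 30.3 and 30.5 in nrpe1-12, with log2 changes of -0.30 (adjusted p = 0.00837) and -0.46 (adjusted p = 0.00129). The split of fragments between BIP1 and BIP2 is uncertain, and neither was called between the mutants (adjusted p = 0.328 and 0.124). BIP3, another BIP member, stayed below 1 FPKM in every library. The mitochondrial mtHsc70-1 (AT4G37910) had 33.8 and 33.5 FPKM for Col-0, 23.1 and 24.99 for apc8-1 and 27.4 and 28.9 for nrpe1-12, with log2 changes of -0.47 (adjusted p = 0.00193) and -0.25 (adjusted p = 0.0366). HSP60 (AT3G23990), a mitochondrial chaperonin gene, had 22.3 and 23.6 FPKM for Col-0, 15.6 and 18.5 for apc8-1 and 18.4 and 17.8 for nrpe1-12, with log2 changes of -0.41 (adjusted p = 0.0121) and -0.33 (adjusted p = 0.0348). The other HSP60 genes, HSP60-2 and HSP60-3A, were not called.

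The chloroplast HSP70 genes did not share this pattern. The cpHsc70-1 gene (AT4G24280), whose product acts in protein import, had 94.9 and 93.4 FPKM for Col-0, 112 and 116 for apc8-1 and 114 and 115 for nrpe1-12, above Col-0 in both mutants (log2 change 0.28 in each, adjusted p = 0.00646 and 0.00690). Its relative cpHsc70-2 (AT5G49910) had 66.6 and 62.7 FPKM for Col-0, 54.3 and 55.8 for apc8-1 and 65.6 and 72.7 for nrpe1-12. It was lower in apc8-1 than in Col-0 (log2 change -0.23, adjusted p = 0.0441) and than in nrpe1-12 (log2 change -0.32, adjusted p = 0.0170). HSP91 (AT1G79930, also Hsp70-14), an HSP70 gene despite its symbol, was called lower in nrpe1-12 alone, with 21.2 and 22.5 FPKM for Col-0 and 16.5 and 16.8 in nrpe1-12 (log2 change -0.37, adjusted p = 0.00765). The remaining tested HSP70 genes, AT1G11660, Hsp70b, Hsp70-15 and AT4G16660, were not called. Summed over the 15 genes, the HSP70 level was 594 to 598 FPKM for Col-0, 451 to 470 for apc8-1 and 535 to 548 in nrpe1-12. The merged locus of HSC70-1 and Hsp70-2, not a member, had 665 and 657 FPKM for Col-0, 535 and 509 in apc8-1 (log2 change -0.34, adjusted p = 0.00262) and 666 and 668 in nrpe1-12 (log2 change 0.01, adjusted p = 0.883, and -0.21, adjusted p = 0.0233, with quantile normalization).

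Some of the smaller HSP70 and HSP60 changes lost their call when a single library was left out. The apc8-1 call of cpHsc70-2 was lost without any 1 of the libraries of Col-0 or apc8-1 (adjusted p = 0.0866 to 0.232), and its call between the mutants without apc8-1 library 1 or library b (adjusted p = 0.0662 and 0.101). Without Col-0 library 2, the calls of cpHsc70-1 (adjusted p = 0.0570 and 0.0619), BIP2 in apc8-1 (adjusted p = 0.0722), HSP91 in nrpe1-12 (adjusted p = 0.0687) and HSP60 in apc8-1 (adjusted p = 0.0811) were lost. HSP60 in apc8-1 also lost its call without apc8-1 library 1 (adjusted p = 0.0566). In nrpe1-12 the calls of mtHsc70-1 and HSP60 were lost without any 1 of the libraries of Col-0 or nrpe1-12 (adjusted p = 0.0738 to 0.158 and 0.0937 to 0.176). The cpHsc70-1 call in nrpe1-12 was also lost with organelle-encoded and rRNA genes removed and the libraries rescaled to the remaining loci (adjusted p = 0.0613). With no filter on low values, calls were lost for HSP60 (adjusted p = 0.0915 in apc8-1 and 0.156 in nrpe1-12), mtHsc70-1 in nrpe1-12 (adjusted p = 0.0824) and cpHsc70-2 (adjusted p = 0.149 in apc8-1 and 0.108 between the mutants).

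**Figure D4:**
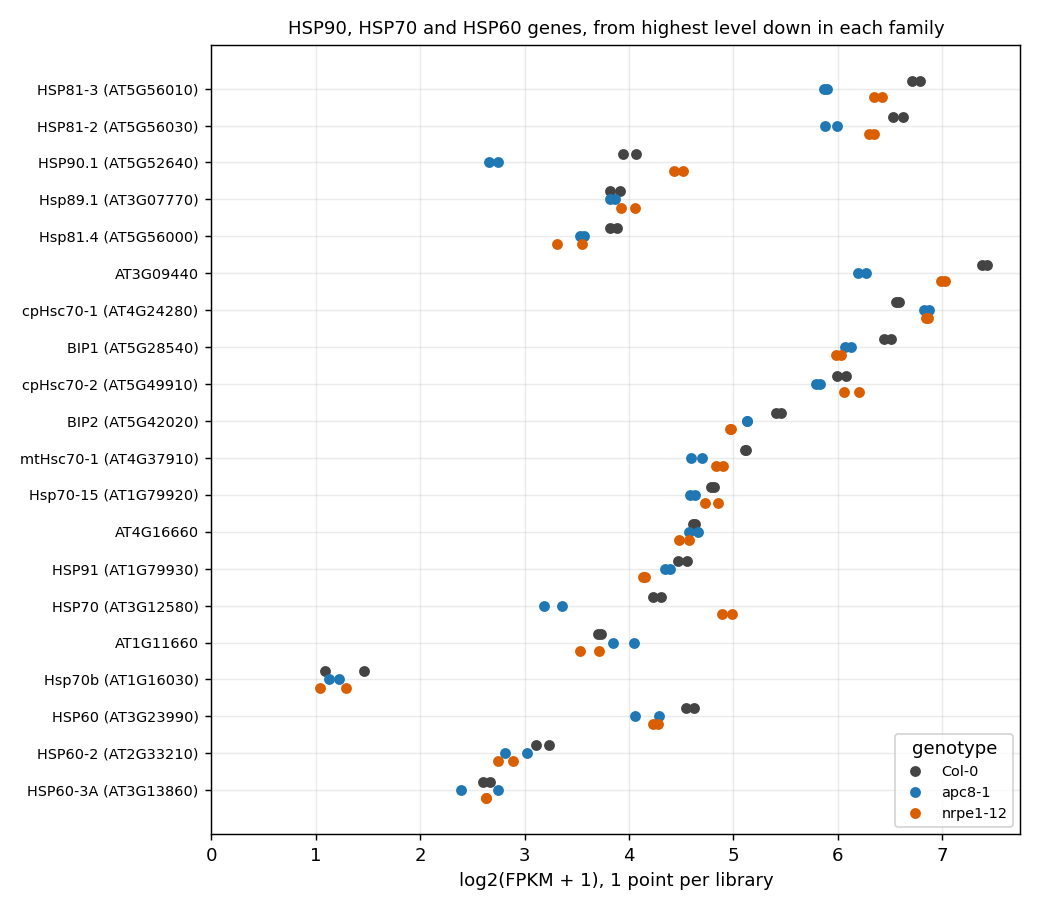
Levels of the tested HSP90, HSP70 and HSP60 genes as log2(FPKM + 1), with 1 point per library, ordered by family and level. The inducible HSP90.1 and HSP70 have their nrpe1-12 points to the right of Col-0 and their apc8-1 points to the left, while HSP81-2, HSP81-3 and AT3G09440 lie to the left of Col-0 in both mutants.

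Of the 39 HSP20 genes 27 were tested. In nrpe1-12, 6 were higher and 3 lower than in Col-0, 33.3% of those tested beside 26.3% of all loci. In apc8-1, 1 was higher and 6 were lower, 25.9% beside 30.2% of all loci, so the HSP20 counts against Col-0 lay near the background. Between the mutants, apc8-1 was higher for 2 and lower for 8, 37.0% of those tested beside 18.7% of all loci. The 8 include HSP17.6II and AT4G16540, which passed the filter on low values through nrpe1-12 alone. HSP17.6A (AT5G12030, chromosome 5, 3884107 to 3884737), a small HSP gene known to be induced by heat and osmotic stress, had 2.199 and 2.09 FPKM for Col-0, 0.768 and 1.07 for apc8-1 and 12.9 and 15.7 for nrpe1-12. Genotypes did not overlap, and the gene showed the largest difference of any member between the mutants (log2 change -2.99, adjusted p = 1.56e-05). It rose in nrpe1-12 by 2.28 in log2 units (SE 0.14, adjusted p = 4.14e-05) and fell in apc8-1 by 0.72 (adjusted p = 0.00712), the latter on an estimated 5 and 7 fragments. Its neighbour HSP17.6II (AT5G12020, 3882237 to 3882938), a class II small HSP gene, was listed at 0.110 and 0 FPKM for Col-0, 0.523 and 0.260 for apc8-1 and 2.62 and 1.81 for nrpe1-12. The nrpe1-12 libraries were the highest (log2 change 1.60, adjusted p = 8.46e-04, an estimated 21 and 12 fragments), and they also stood above apc8-1 (log2 change for apc8-1 minus nrpe1-12 of -1.20, adjusted p = 0.00503). HSP17.6II passed the filter on low values through nrpe1-12 alone, so it could only come out higher there. It is still 1 of the 6 HSP20 genes counted as higher in nrpe1-12.

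Other HSP20 family genes followed the same direction in nrpe1-12. AT1G54050 (chromosome 1, 20179422 to 20180281) had 4.15 and 2.01 FPKM for Col-0, 2.88 and 4.09 for apc8-1 and 14.1 and 13.3 for nrpe1-12 (log2 change in nrpe1-12 1.90, SE 0.24, adjusted p = 8.96e-04). AT1G59860 (chromosome 1, 22031413 to 22032132) had 2.01 and 3.69 FPKM for Col-0, 2.90 and 2.25 for apc8-1 and 9.87 and 9.91 for nrpe1-12 (log2 change in nrpe1-12 1.53, SE 0.20, adjusted p = 0.00116). For both genes the Col-0 and apc8-1 libraries overlapped, and neither was called in apc8-1. AT2G29500 (chromosome 2, 12633091 to 12633805) had 1.93 and 1.72 FPKM for Col-0, 0.764 and 0.631 for apc8-1 and 4.62 and 4.71 for nrpe1-12. It rose in nrpe1-12 (log2 change 1.00, adjusted p = 0.00129) and fell in apc8-1 (log2 change -0.74, adjusted p = 0.00499). The fall rested on an estimated 6 and 5 fragments in apc8-1 and 18 and 12 in Col-0. AT2G19310, an abundant HSP20-like gene with 53.5 and 54.3 FPKM for Col-0, had 46.9 and 43.7 in apc8-1 (log2 change -0.24, adjusted p = 0.0198) and 62.0 and 63.0 in nrpe1-12 (log2 change 0.21, adjusted p = 0.0402). Each of these 4 genes was lower in apc8-1 than in nrpe1-12 (log2 changes -1.73, -1.61, -1.74 and -0.46, adjusted p = 0.00228, 0.00145, 1.42e-04 and 0.00207). AT4G16540, at 0.658 and 0 FPKM in apc8-1 and 1.63 and 1.83 in nrpe1-12, was called in that comparison alone (log2 change -1.08, adjusted p = 0.0209). AT4G16540 passed the filter on low values through nrpe1-12 alone, so it could only come out lower in apc8-1.

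AT5G51440 (chromosome 5, 20891163 to 20892211) was called lower in apc8-1 and was not called in nrpe1-12. It had 11.7 and 10.3 FPKM for Col-0, 4.02 and 3.42 for apc8-1 and 12.6 and 13.1 for nrpe1-12. Its log2 change was -1.35 in apc8-1 (SE 0.11, adjusted p = 8.56e-05), 0.21 in nrpe1-12 (adjusted p = 0.202, not called) and -1.56 between the mutants (adjusted p = 8.24e-05). BOB1 (AT5G53400), a gene needed for embryo patterning and thermotolerance, had 25.2 and 21.8 FPKM for Col-0, 13.6 and 16.9 for apc8-1 and 16.9 and 18.0 for nrpe1-12, lower in both (log2 changes -0.60 and -0.41, adjusted p = 0.00625 and 0.0351). AT5G47590 was lower in both mutants as well, with 8.22 and 8.29 FPKM for Col-0, 5.74 and 4.34 for apc8-1 and 4.84 and 3.64 for nrpe1-12 (log2 changes -0.62 and -0.83, adjusted p = 0.0180 and 0.00576). AT4G02450 was the 1 HSP20-like gene higher in apc8-1, with 5.82 and 6.64 FPKM for Col-0, 10.4 and 11.2 for apc8-1 and 6.42 and 6.32 for nrpe1-12. It rose by 0.71 in log2 units (SE 0.10, adjusted p = 0.00157) and stood above nrpe1-12 by 0.68 (adjusted p = 0.00352). AT5G02480, the most abundant HSP20-like transcript at 105 and 98.9 FPKM for Col-0, had 93.9 and 99.1 in apc8-1 and 82.0 and 88.4 in nrpe1-12, where it was called lower (log2 change -0.26, adjusted p = 0.0233). AT4G21870 was higher in apc8-1 than in nrpe1-12 (59.2 and 67.2 FPKM against 50.8 and 53.7, log2 change 0.27, adjusted p = 0.0445).

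The calls of AT2G19310 in apc8-1 were lost without Col-0 library 1, Col-0 library 2 or apc8-1 library 2 (adjusted p = 0.0892 to 0.113). Those of AT2G19310 in nrpe1-12 were lost without any 1 of the libraries of Col-0 or nrpe1-12 (adjusted p = 0.112 to 0.181) and with organelle-encoded and rRNA genes removed (adjusted p = 0.297). BOB1 lost its call in apc8-1 without Col-0 library 1 (adjusted p = 0.0509) and in nrpe1-12 without Col-0 library 1, library a or library b (adjusted p = 0.0853 to 0.200). AT5G47590 lost its call in apc8-1 without Col-0 library 1, Col-0 library 2 or apc8-1 library 2 (adjusted p = 0.0777 to 0.0911), and AT5G02480 in nrpe1-12 without Col-0 library 1, Col-0 library 2 or library a (adjusted p = 0.0635 to 0.157). The AT4G21870 call was lost without any 1 of the libraries other than apc8-1 library 1 (adjusted p = 0.0760 to 0.189). AT4G16540 lost its call without apc8-1 library 2 (adjusted p = 0.0754), and without library a or library b neither AT4G16540 nor HSP17.6II was tested. With no filter on low values, HSP20 calls were lost in apc8-1 for HSP17.6A, BOB1 and AT5G47590 (adjusted p = 0.0687, 0.0973 and 0.146). In nrpe1-12 they were lost for AT1G59860, AT1G54050, AT2G19310, AT5G47590, AT5G02480 and BOB1 (adjusted p = 0.0596, 0.0604, 0.0721, 0.0939, 0.106 and 0.215), and between the mutants for HSP17.6II, AT1G59860, AT1G54050, AT4G16540 and AT4G21870 (adjusted p = 0.0630, 0.0730, 0.0951, 0.178 and 0.192). AT4G16540 also lost its call with a pseudocount of 0.1 (adjusted p = 0.0643).

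**Figure D5:**
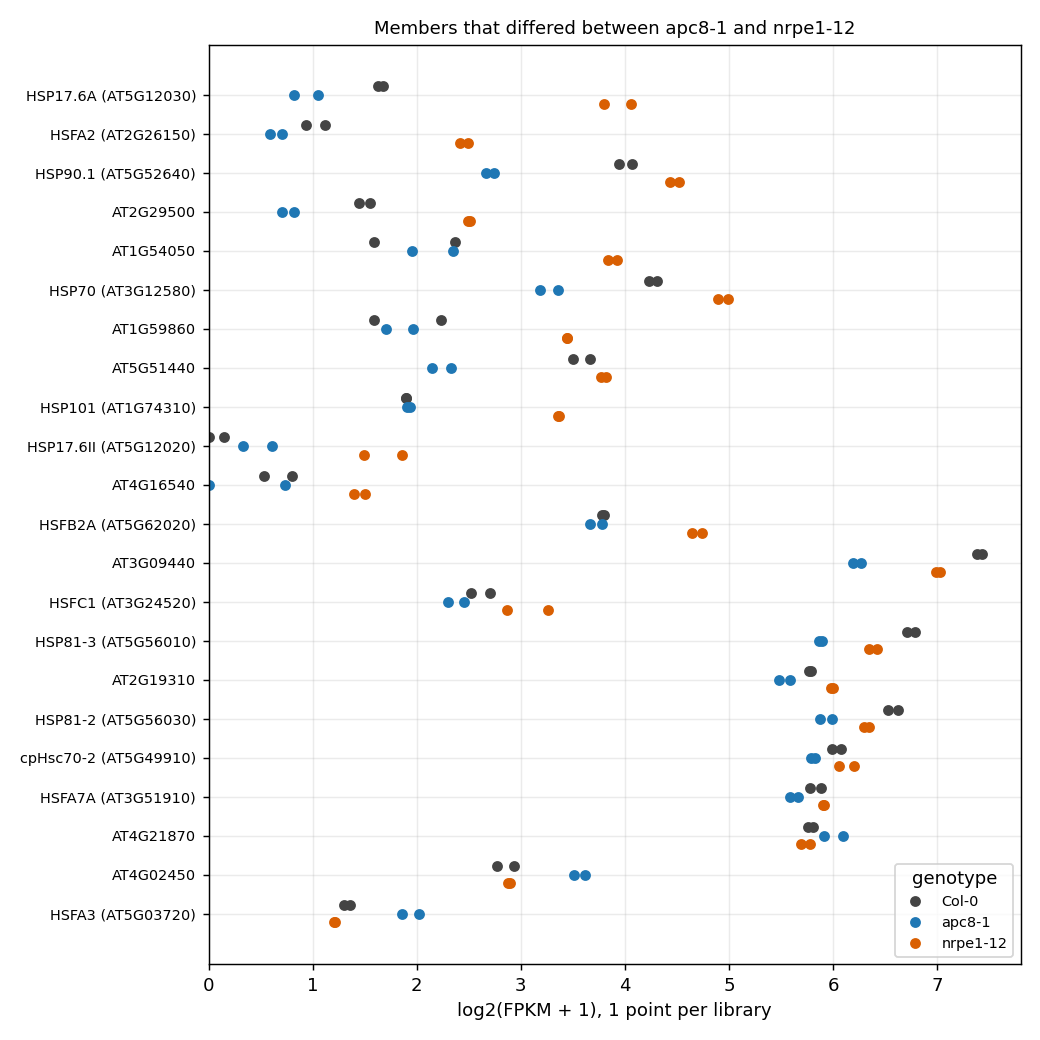
Levels of the 22 members that differed between the mutants as log2(FPKM + 1), with 1 point per library, ordered from the largest decrease to the largest increase in apc8-1 against nrpe1-12. From the top down to HSFA7A the apc8-1 points (blue) lie to the left of the nrpe1-12 points (orange); the last 3 genes, AT4G21870, AT4G02450 and HSFA3, show the opposite order.

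The other tested HSP20 members did not pass the test in any comparison. They include SLT1, a gene of salt tolerance (15.9 to 19.3 FPKM over the libraries), RTM2, a gene that restricts the movement of a plant virus (3.94 to 6.74 FPKM), and the small HSP gene HSP17.4 (0.705 to 1.47 FPKM). AT1G54840, which RefSeq also names IDM2 and whose product acts in active DNA demethylation, had 1.29 and 0.764 FPKM for Col-0, 0.972 and 0.840 for apc8-1 and 0.871 and 1.11 for nrpe1-12. Genotypes overlapped and no comparison passed (adjusted p = 0.795 to 0.966). Its span shares 79 bases with NF-YC3 on the opposite strand, a gene with a mean of 20.98 FPKM. That of HSP17.4 shares 60 bases with AT3G46220 on the opposite strand, which had a mean of 9.43 FPKM. Whether counting separated the strands is not stated, so the levels of AT1G54840 and HSP17.4 are uncertain. AT5G37670 had 1.97 and 2.18 FPKM for Col-0, 4.65 and 1.70 for apc8-1 and 4.45 and 4.19 for nrpe1-12, so the apc8-1 libraries disagreed and neither mutant was called (adjusted p = 0.419 and 0.0857). The 24 untested members reached at most 1.19 FPKM in any library, and 3 of them were listed at 0 throughout. They include the chloroplast gene HSP21, HSP23.6-MITO of the mitochondrion, and ATHSP22.0, all below 0.2 FPKM, and the 5 pseudogenes, of which AT5G54661 was highest at 0.324 FPKM in library b.

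Genes of the heat response outside the membership rule were compared through a list of 37 chaperone and heat response genes, of which the table holds 33 that are not members, 30 of them tested. In nrpe1-12, 9 were higher and 5 lower, where 26.3% of all loci were called, and in apc8-1, 2 were higher and 8 lower, where 30.2% were, so the count in apc8-1 lay near the background. Among the 8 tested heat response genes 5 were higher and 1 lower in nrpe1-12 (median log2 change 0.48), and 3 were lower in apc8-1 (median -0.32). MBF1C (AT3G24500), a coactivator of thermotolerance, had 52.4 and 45.1 FPKM for Col-0, 34.3 and 41.4 for apc8-1 and 93.3 and 121 for nrpe1-12 (log2 change in nrpe1-12 1.11, adjusted p = 8.26e-04), a call lost with no filter on low values (adjusted p = 0.0590). In apc8-1 it was not called (log2 change -0.36, adjusted p = 0.0873) but was without library a or library b (adjusted p = 0.0486 and 0.0490) and with organelle-encoded and rRNA genes removed (adjusted p = 0.0444). GOLS1 (AT2G47180), a galactinol synthase gene known as an HSF target, had 24.8 and 24.4 FPKM for Col-0, 15.5 and 16.8 for apc8-1 and 41.9 and 40.8 for nrpe1-12. It fell in apc8-1 (log2 change -0.57, adjusted p = 7.25e-04) and rose in nrpe1-12 (log2 change 0.73, adjusted p = 2.80e-04). BAG6 and FES1A were also higher in nrpe1-12 (log2 changes 0.41 and 0.55, adjusted p = 0.0202 and 0.0129). The BAG6 call was lost with organelle-encoded and rRNA genes removed (adjusted p = 0.0542), and that of FES1A with no filter on low values (adjusted p = 0.0741). The BAG6 call was also lost without any 1 of the libraries of Col-0 or nrpe1-12. That of FES1A was also lost without Col-0 library 2 or library b. ROF1 and DREB2A were not called in nrpe1-12 (log2 changes -0.19 and 0.32). In apc8-1 ROF1 was called lower (log2 change -0.38, adjusted p = 0.0272). This call was lost without Col-0 library 1, Col-0 library 2 or apc8-1 library 1. ROF2 (AT5G48570), an immunophilin gene of the heat response, rose in nrpe1-12 (log2 change 0.89, adjusted p = 0.00164). Its call as lower in apc8-1 (log2 change -0.41, adjusted p = 0.0443) was lost without any 1 of the libraries other than Col-0 library 1 (adjusted p = 0.0616 to 0.251). HSBP, whose product binds HSFs and dampens them, was called lower in nrpe1-12 (log2 change -0.21, adjusted p = 0.0408), a call lost without any 1 of the libraries of Col-0 or nrpe1-12 (adjusted p = 0.118 to 0.190).

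Of 8 HSP90 and HSP70 partner genes 3 were lower in apc8-1 and 2 higher in nrpe1-12, near the 30.2% and 26.3% of all loci called, beside which the small counts of organelle and endoplasmic reticulum genes below are also to be read. The co-chaperone gene HOP3 rose in nrpe1-12 (2.32 and 2.54 FPKM for Col-0, 5.01 and 5.999 in nrpe1-12, log2 change 0.92, adjusted p = 0.00184), and so did SGT1A (log2 change 0.73, adjusted p = 0.00103). The HSP40 gene J2 had 46.9 and 47.5 FPKM for Col-0 and 32.5 and 32.4 in apc8-1 (log2 change -0.53, adjusted p = 7.71e-04). HOP2 and J3, also called lower in apc8-1, lost their calls without Col-0 library 1 or Col-0 library 2. HOP2 also lost its call without apc8-1 library 1. Among 6 organelle chaperone genes 2 were higher in each mutant. The call of CPN20 in apc8-1 was lost without any 1 of the libraries of Col-0 or apc8-1. That of CLPB3 in nrpe1-12 was lost without Col-0 library 2 or library b. The chloroplast chaperonin CPN60B was 1 of the 2 in both (log2 changes 0.53 and 0.25, adjusted p = 5.37e-04 and 0.0200), though in nrpe1-12 the call was lost without Col-0 library 2, library a or library b (adjusted p = 0.0728 to 0.157), with no filter on low values (adjusted p = 0.0774) and with organelle-encoded and rRNA genes removed (adjusted p = 0.148). Among 8 tested genes of the endoplasmic reticulum and its stress response 2 were lower in apc8-1 and 4 in nrpe1-12, with CNX1, a lectin chaperone gene, lower in both (log2 changes -0.32 and -0.38, adjusted p = 0.0131 and 0.00655). The CNX1 calls were lost without Col-0 library 2 (adjusted p = 0.0873 and 0.0536), and that in apc8-1 also without Col-0 library 1 (adjusted p = 0.0553); both were lost with no filter on low values (adjusted p = 0.0856 and 0.0680). Over the whole list, the genes lower in apc8-1 numbered 4 without Col-0 library 1, 3 without Col-0 library 2 and 5 without apc8-1 library 1, and those higher numbered 1 without any 1 of these. In nrpe1-12 the higher genes numbered 5 without Col-0 library 2 or library b. The lower ones there numbered 1 without Col-0 library 1, 0 without Col-0 library 2, 2 without library a and 1 without library b.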

How the data were processed

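Per the submitters' processing notes, the tools were Cuffnorm 2.2.1, Cufflinks 2.2.1 and TopHat2 2.0.13, with the TAIR10 build. The deposited table holds the authors' FPKM per locus and library. Exon coordinates in a second deposited table were used (unit: other) for the assembly's class codes alone. No source used here states the counting strand, so genes overlapping on opposite strands are uncertain. RefSeq (TAIR10.1) gave the names and matched 83 of 83 members. Of loci with a single exon and over 1500 bases, 97.9 to 99.4% of low values lay within 0.15 of a whole number of estimated fragments.

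The 17802 loci that reached 1 FPKM in 2 or more libraries were fitted as log2(FPKM + 1) with limma 3.58.1 in R 4.3.3, with an intensity trend, all 6 libraries in 1 fit, 3 residual and 4.93 prior degrees of freedom. The procedure was tested on simulated data. The smallest p that an exact permutation test allows between genotypes here is 0.333. Alternatives were pseudocounts of 0.1 and 0.5, no filter or a filter of 5 FPKM, median-of-ratios scaling, quantile normalization, removal of organelle-encoded and rRNA genes, fits of 2 genotypes, no trend, a replicate block and leaving out each library. Where organelle-encoded and rRNA genes were removed, each library was also rescaled to the same total FPKM over the remaining loci. Promoter and protein sequences were not used here.

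The members, gene lists and rule for named genes were chosen with earlier results of these data known. Library values were printed for up to 5 called members per family and mutant with the smallest adjusted p, the 5 members differing most clearly between the mutants, the most abundant member of each family, and 11 genes fixed by name. AT2G19310, AT5G47590, HSFC1, HSP91, cpHsc70-2, AT4G21870, AT4G16540, AT1G54840, AT5G37670, members given only as ranges and the genes named from the list of other chaperone genes were added after their values were seen.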

Additional observations from a re-analysis of the deposited data

How the results depend on the processing

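Of the member calls against Col-0, 10 of 21 in apc8-1 and 11 of 25 in nrpe1-12 were kept under every alternative that tested the gene. Between the mutants 12 of 22 were kept in this way. The 11 include HSP17.6II, which was not tested without library a, without library b or with the 5 FPKM filter. HSFA2 and AT2G29500, also among the 11, were not tested with the 5 FPKM filter. With no filter on low values, members called lower numbered 11 in apc8-1, 5 in nrpe1-12 and 11 in apc8-1 against nrpe1-12, and over all loci the calls were 1410 higher and 1867 lower, 1342 and 1246, and 539 and 923. The listed other genes were then 1 higher and 3 lower, 5 and 3, and 1 higher. The cause was not tested. With organelle-encoded and rRNA genes removed the median over all loci moved to -0.071 in apc8-1 and -0.115 in nrpe1-12. Calls over all loci were then 1738 higher and 3701 lower (32.0% higher, in place of 46.6%) in apc8-1 and 1701 and 3721 (31.4%, in place of 51.4%) in nrpe1-12. Members were 3 higher and 22 lower, and 10 and 15, and listed genes 1 higher and 13 lower, 8 lower in nrpe1-12 and 7 higher between the mutants. The listed genes higher numbered 1 in apc8-1 and 7 between the mutants with quantile normalization, and 5 between the mutants with the 5 FPKM filter. Without the trend they were 1 higher and 4 lower in apc8-1, 1 lower in nrpe1-12 and 1 higher between the mutants. The merged HSC70-1 locus in nrpe1-12 changed sign with quantile normalization (-0.209).

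With each library left out in turn, calls over all loci ranged from 1462 to 2395 higher and 1776 to 2775 lower in apc8-1, 1535 to 2481 and 1175 to 2376 in nrpe1-12, and 662 to 1058 and 1160 to 1778 between the mutants. Members ranged from 1 to 5 higher and 12 to 18 lower in apc8-1, 9 to 14 and 6 to 13 in nrpe1-12, and 1 to 3 and 14 to 19 between the mutants. Listed genes ranged from 1 to 2 and 3 to 8, 5 to 9 and 0 to 5, and 1 to 3 higher. A side left with 1 library was assumed to vary like the others.

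Deviations of same-numbered Col-0 and apc8-1 libraries correlated at -0.059 across loci, so the numbers were not taken as pairs. With a replicate block 3 members were higher and 15 lower in apc8-1, and 2065 and 2528 loci. No paired analysis was possible for nrpe1-12 because its columns share a name. Genes near 1 FPKM rest on few fragments, which limits what can be detected among the 24 untested members.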
